A study of Mus musculus with 24 samples.

Results

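The Oas family of the mouse encodes the oligoadenylate synthetases and their relatives. The catalytic members sense double-stranded RNA and join ATP into short adenylate chains that serve as an antiviral signal, and most members are induced by interferons through the receptor Ifnar and the factor complex that contains Stat2 and Irf9. The 9 symbols followed were Oas1a, Oas1b, Oas1c, Oas1f, Oas1g, Oas2, Oas3, Oasl1 and Oasl2. A probe was taken as a member when the RefSeq transcript named on the array mapped to one of these symbols, which gave 10 probes for 8 of the 9 members among 20659 genes with a symbol. No probe was matched to Oas1b, which is therefore only named. The set and the split into genes that followed genotype and genes that followed the interferon-induced genes were chosen from measured values on these same arrays, so every comparison of genotypes, of time points and of the family with the interferon-induced genes is given as a description without a test.

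CD11b+ myeloid cells were taken from the spleen or the bone marrow of male mice on a Balb/C background, 10 weeks old. The genotypes were wild type (WT), HDC-KO, which lack the histamine-forming enzyme histidine decarboxylase, and STAT6-KO, which lack the interleukin-4 signalling factor Stat6. Mice were controls or had a myocardial infarction (MI) 1, 2 or 4 weeks earlier, and each condition was 1 array of RNA from cells pooled from 5 mice, so no condition had a replicate. Of 24 arrays, 22 were complete. The control array of HDC-KO spleen and the 1 week array of STAT6-KO bone marrow held only a few spots, none of them of a member, and were not used. Levels are log2 signals relative to the 75th percentile of their array, so 0 marks that percentile and 1 unit is a doubling. Each of the 6 slides carried 1 genotype in 1 tissue, so neither genotype within a tissue nor tissue within a genotype can be told apart from slide.

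The targeted genes were as follows. Hdc lay between 1.67 and 2.78 on the 7 HDC-KO arrays, all of them well above background, and between 4.12 and 5.51 on the other 15 arrays. The Stat6 probe A_52_P114494 lay between 1.76 and 2.44 on the 7 STAT6-KO arrays, between 2.38 and 3.70 in WT and between 2.24 and 3.05 in HDC-KO. On this probe Stat6 signal was thus lower but present in STAT6-KO, with a slight overlap. The other Stat6 probes overlapped more. A_52_P132761 ran from -1.11 to 0.73 in STAT6-KO and from 0.05 to 1.29 in WT. A_65_P00601 ran from -1.72 to 0.20 in STAT6-KO and from -0.43 to 1.99 in WT. Of 8 myeloid markers 6 had a probe, and all 6 were well above background on every complete array.

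The promoters of 7 members were found in RefSeq (build GRCm38.p6), and 5 are shown because they set the genes that separated by genotype (Oas1a, Oas1g, Oas1f) beside members that did not (Oas3, Oas1c). Each line holds the 250 bases before the annotated start of the gene, 5′ to 3′ on its own strand, in lower case. Capitals mark every match to the core of the interferon-stimulated response element, searched on both strands as GAAANNGAAA and its reverse complement TTTCNNTTTC, with overlapping matches kept.
Oas1a (chr5:120907526-120907775, minus strand): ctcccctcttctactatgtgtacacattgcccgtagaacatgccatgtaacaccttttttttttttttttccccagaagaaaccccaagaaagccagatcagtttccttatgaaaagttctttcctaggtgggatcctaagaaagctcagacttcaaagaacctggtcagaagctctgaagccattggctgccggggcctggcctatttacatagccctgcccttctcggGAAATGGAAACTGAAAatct
Oas1g (chr5:120887614-120887863, minus strand): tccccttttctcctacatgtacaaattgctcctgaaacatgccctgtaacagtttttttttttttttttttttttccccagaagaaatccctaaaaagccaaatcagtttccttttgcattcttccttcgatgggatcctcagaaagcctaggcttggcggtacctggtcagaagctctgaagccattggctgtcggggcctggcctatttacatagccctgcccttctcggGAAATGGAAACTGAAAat
Oas1f (chr5:120847117-120847366, plus strand): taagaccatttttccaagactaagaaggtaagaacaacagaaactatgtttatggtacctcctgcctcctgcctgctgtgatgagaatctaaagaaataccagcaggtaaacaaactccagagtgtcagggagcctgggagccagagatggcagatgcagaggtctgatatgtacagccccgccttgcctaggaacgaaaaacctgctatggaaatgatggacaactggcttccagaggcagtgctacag
Oas3 (chr5:120777660-120777909, minus strand): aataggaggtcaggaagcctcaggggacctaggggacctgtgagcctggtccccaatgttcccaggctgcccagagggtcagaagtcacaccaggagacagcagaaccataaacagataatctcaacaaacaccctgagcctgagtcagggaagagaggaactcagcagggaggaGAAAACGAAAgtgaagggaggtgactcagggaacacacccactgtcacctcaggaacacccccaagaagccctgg
Oas1c (chr5:120812515-120812764, minus strand): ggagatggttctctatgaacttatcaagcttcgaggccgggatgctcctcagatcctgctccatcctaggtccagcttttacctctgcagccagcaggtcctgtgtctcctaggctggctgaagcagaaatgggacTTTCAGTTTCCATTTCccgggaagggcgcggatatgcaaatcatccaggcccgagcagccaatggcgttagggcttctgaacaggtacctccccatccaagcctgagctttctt

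The motif occurred in 4 of the 7 member promoters, against 2.98% of the 32851 promoters of the same length in the table. Oas1a and Oas1g each held a pair of matches that overlap in the middle GAAA, beginning 20 bases before the start in Oas1a and 18 bases before it in Oas1g. These promoters were 84.8% identical over 250 bases by global alignment, whereas Oas1f was 45.2% identical to Oas1a, close to the 42.8% of Oas3 and Oas1a. Oas3 held a single match 75 bases before its start, and Oas1c held overlapping matches on the opposite strand from 114 bases before its start. The letters were not in this window of Oas1f, Oasl1 or Oasl2. A match is a description of the sequence, and binding was not measured.

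Oas1a (both probes), Oas1f and Oas1g (probe A_55_P1998979) were far higher on every knockout array than on any WT array. This held whether the knockout was of Hdc or of Stat6. On the other Oas1g probe, A_55_P1998977, the groups overlapped. Oas1a encodes a catalytic synthetase, and Oas1g is a close copy of it in the same gene cluster. On probe A_55_P1998943, Oas1a in WT spleen was at -3.89 in the control and at -5.91, -3.41 and -7.00 at 1, 2 and 4 weeks after MI. In WT bone marrow the values were -6.47, -5.61, -3.61 and -3.39 in the same order. Only 5 of these 8 arrays were well above background, so the spread within WT was in part that of dim spots. HDC-KO spleen read 4.33, 3.83 and 4.59 at 1, 2 and 4 weeks, and HDC-KO bone marrow read 4.01, 4.28, 3.82 and 4.98 from the control to 4 weeks. STAT6-KO spleen read 3.30, 3.49, 3.84 and 5.58 from the control to 4 weeks, and STAT6-KO bone marrow read 3.18 in the control, 3.34 at 2 weeks and 5.44 at 4 weeks. The lowest knockout array therefore stood 6.57 above the highest WT array. The second Oas1a probe, A_55_P1998942, was well above background on all 22 arrays and ran from -5.86 to -3.18 in WT (median -4.54, n = 8) and from 0.69 to 3.77 in the knockouts (median 1.73, n = 14). Its lowest knockout array stood 3.87 above the highest WT array.

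Oas1f, another gene of the Oas1 cluster, was well above background on all 22 arrays. In WT spleen it was at -3.69, -3.68, -3.16 and -4.02 from the control to 4 weeks after MI, and in WT bone marrow at -3.94, -2.85, -2.97 and -3.11. The HDC-KO arrays read 3.30, 2.72 and 3.41 in spleen at 1, 2 and 4 weeks and 2.92, 2.80, 2.87 and 3.58 in bone marrow from the control to 4 weeks. In STAT6-KO the values were 2.05, 2.24, 2.63 and 4.37 in spleen and 2.11, 2.30 and 4.59 in bone marrow (control, 2 and 4 weeks). The groups did not overlap, with 4.90 between the highest WT and the lowest knockout array. Knockout minus WT at the same time and tissue averaged 6.44 ± 0.92 for Oas1f (SD over 14 pairs, which share their WT arrays between the knockouts).

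Oas1g on probe A_55_P1998979 was not well above background on any of the 8 WT arrays, where it ran from -9.14 to -8.08, and was well above it on all 14 knockout arrays, where it ran from -4.30 to -1.24 (median -2.91). The WT side is only a bound. It was set as the higher of the measured signal and the lowest signal well above background on that array. Against it, this probe was at least 14.5-fold higher in STAT6-KO spleen and at least 8.69-fold higher in STAT6-KO bone marrow than in WT. In HDC-KO it was at least 16.6-fold higher in spleen and at least 10.8-fold higher in bone marrow. These bounds hold only for the processed signal used here. Under another background correction (normexp) the lowest knockout array minus the highest WT array was -0.13, so the groups overlapped. The other Oas1g probe, A_55_P1998977, was likewise not well above background on any of the 8 WT arrays and was well above it on only 10 of 14 knockout arrays, and its groups overlapped (WT -8.16 to -6.87, knockouts -7.53 to -3.88). Against the same bound it was at least 1.97-fold higher in STAT6-KO bone marrow and 1.59-fold higher in HDC-KO bone marrow. In HDC-KO spleen, with 2 of 3 arrays well above background, the value was 1.43-fold. In STAT6-KO spleen, with 1 of 4 arrays well above background, no bound above 1 could be given. Oas1a, Oas1f and Oas1g are related in sequence, the sequences of their probes were not analysed here, and signal shared between them was not tested.

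**Figure D1:**
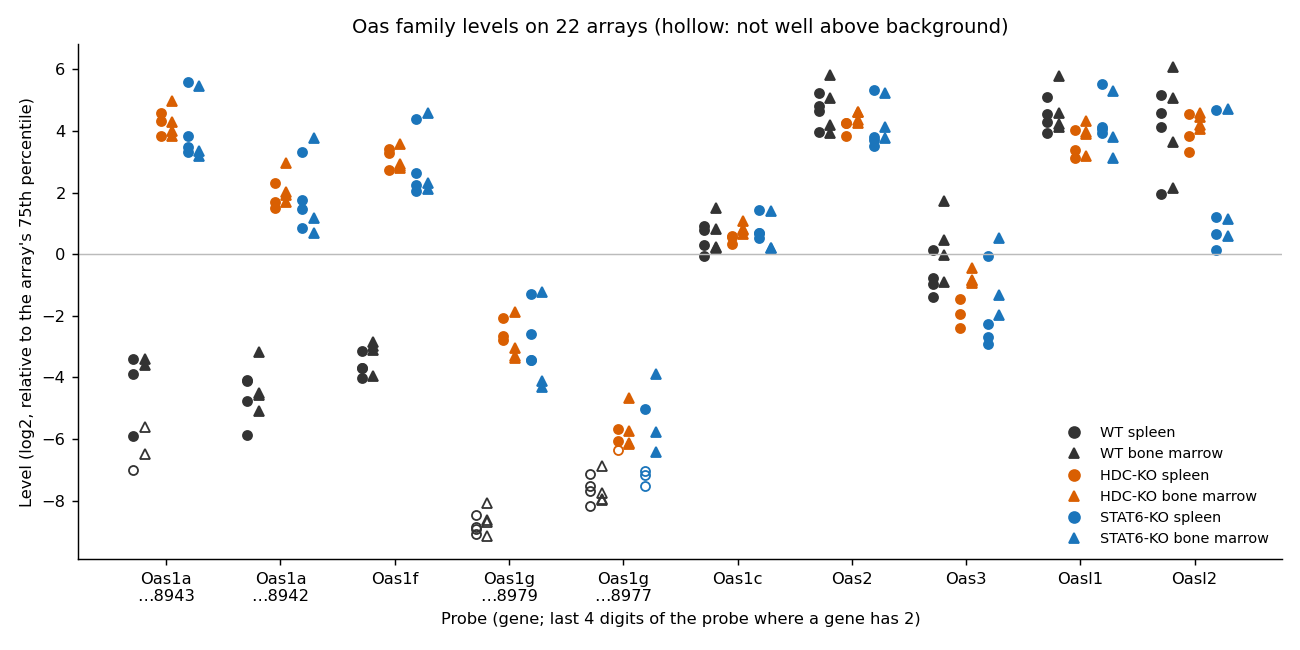
Level of each of the 10 Oas probes (vertical axis, log2 relative to the array's 75th percentile) on 22 arrays, coloured by genotype, with circles for spleen, triangles for bone marrow and hollow symbols for spots not well above background. The WT arrays lie apart from and below all 14 knockout arrays for both Oas1a probes, for Oas1f and for Oas1g probe A_55_P1998979, and overlap with them for the other 6 probes.

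In all, 4 of the 10 family probes, for 3 of the 8 genes, had every knockout array above every WT array. Over all 33617 probes well above background on at least 2 arrays this was so for 0.0387%, or 13 probes, and no probe had every knockout array below every WT array (0.0%). As the members were chosen on this contrast, nothing is read from the share. Among probes with a symbol, 6 had a gap of more than 1 between the groups, namely these 4 and 2 probes of Ctps2, a CTP synthase, a gene named only after its values had been looked at. The knockouts lay on both sides of each other on these probes. STAT6-KO minus HDC-KO at the same time in spleen averaged 0.05 for Oas1a (A_55_P1998943; range -0.84 to 0.99, n = 3) and -0.06 for Oas1f (-1.05 to 0.96, n = 3), and in bone marrow -0.28 (-0.83 to 0.47, n = 3) and -0.12 (-0.81 to 1.01, n = 3).

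No measured neighbour of a family member separated in the same way. RefSeq places Oas1f, Oas1h, Oas1g and Oas1a in this order on chromosome 5, with Oas2, Oas3, Oas1e, Oas1c and Oas1b before them and Oas1d after them. Of 78 other genes within 500 kb of a member, 50 had a probe, and 69 of these probes were well above background on at least 2 arrays. None of the 69 had the knockout arrays apart from the WT arrays in either direction. Over all probes this was so for 0.0387% above and 0.0% below, so the count says nothing particular about the neighbours. The mean knockout minus WT difference of the 69 probes had a median size of 0.12 and a largest size of 0.91 (Dynll1). They include the neighbours of Oasl1 and Oasl2, which lie apart from the Oas1 cluster. The Oasl1 promoter begins at chr5:114922990 and that of Oas1f at chr5:120847117. Dynll1 lies between Oasl1 and Oas2 in the order on the chromosome. Neighbours of Oas1a, Oas1f and Oas1g alone were not counted separately. Oas1h, between Oas1f and Oas1g, averaged -0.10 ± 0.72 on its probe A_55_P2149492, which was well above background on 7 of 22 arrays. Oas1d averaged 0.11 ± 1.27 and Oas1e -0.03 ± 0.50 (SD over 14 pairs). Oas1c, also a member of the cluster, averaged 0.14 ± 0.65.

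**Figure D2:**
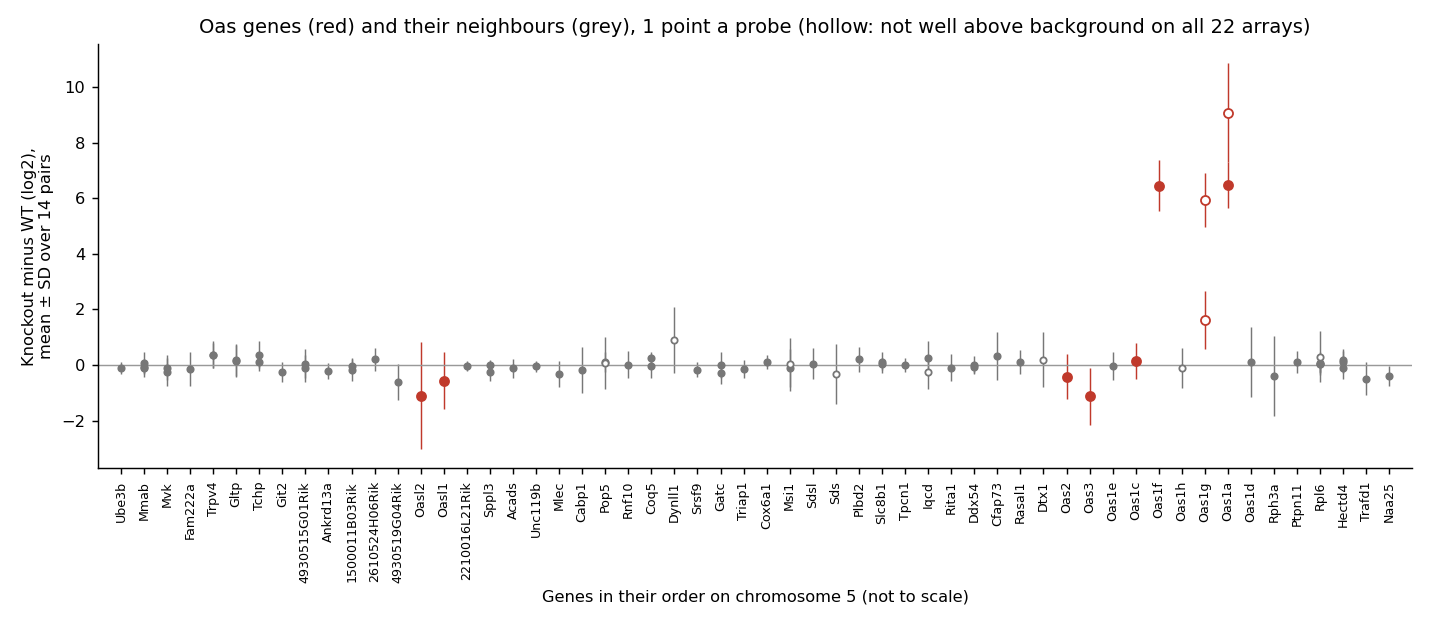
Mean knockout minus WT difference (vertical axis, log2; bars are the SD over 14 pairs of arrays of the same tissue and time, which share WT arrays) for every probe well above background on at least 2 arrays, with genes in their order on chromosome 5 Oas members in red and hollow symbols for probes not well above background on all 22 arrays. The filled points of Oas1f and Oas1a (A_55_P1998942) lie at 6.44 and 6.48, the hollow points of Oas1a and Oas1g are differences against WT spots that were in part or wholly not well above background, and the grey neighbours stay within 0.91 of 0.

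The second pattern held Oas2, Oas3, Oasl1, Oasl2 and Oas1c. Oas2 and Oas3 encode larger synthetases built from repeated units, Oasl1 lacks synthetase activity and restrains translation of Irf7, and Oasl2 carries ubiquitin-like domains. Within WT they were highest 1 week after MI in both tissues, apart from Oas1c in spleen, which was highest at 2 weeks. Within STAT6-KO they were highest 4 weeks after MI in both tissues, but STAT6-KO bone marrow had no usable array at 1 week. Oas2 in WT spleen was at 3.97 in the control and at 5.23, 4.82 and 4.63 at 1, 2 and 4 weeks, and in WT bone marrow at 3.93, 5.83, 5.06 and 4.18. In STAT6-KO it was at 3.52, 3.69, 3.81 and 5.33 in spleen and at 3.77, 4.13 and 5.22 in bone marrow (control, 2 and 4 weeks). The HDC-KO arrays stayed between 3.83 and 4.62. The 4 highest arrays for Oas2 were thus WT at 1 week and STAT6-KO at 4 weeks, and the WT and knockout ranges overlapped.

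Oasl2 had the widest course of these genes. It was at 1.96 in WT spleen control and at 5.18, 4.58 and 4.13 at 1, 2 and 4 weeks, and in WT bone marrow at 2.16, 6.06, 5.07 and 3.63. In STAT6-KO it was at 0.12, 1.19 and 0.65 in spleen up to 2 weeks and then at 4.69 at 4 weeks, and in bone marrow at 0.58 and 1.13 in the control and at 2 weeks and then at 4.70. The 5 STAT6-KO arrays before 4 weeks were the 5 lowest of all 22 for Oasl2. HDC-KO read 4.53, 3.33 and 3.83 in spleen at 1, 2 and 4 weeks and 4.20, 4.45, 4.06 and 4.59 in bone marrow from the control to 4 weeks. HDC-KO minus WT in bone marrow was therefore 2.04 in the control, -1.61 and -1.01 at 1 and 2 weeks and 0.96 at 4 weeks, higher in 2 of 4 pairs.

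Oas3 was at -1.39, 0.15, -0.95 and -0.76 in WT spleen and at -0.91, 1.73, 0.45 and -0.03 in WT bone marrow. In STAT6-KO it was at -2.70, -2.26, -2.90 and -0.05 in spleen and at -1.99, -1.32 and 0.53 in bone marrow. In spleen it was lower in HDC-KO than in WT in 3 of 3 pairs, and HDC-KO minus WT averaged -1.41 ± 0.22 (SD). Oasl1 was at 3.94, 5.11, 4.56 and 4.30 in WT spleen and at 4.22, 5.79, 4.58 and 4.11 in WT bone marrow. In STAT6-KO Oasl1 read 3.92, 4.12, 4.07 and 5.53 in spleen and 3.12, 3.81 and 5.30 in bone marrow. Oas1c had a range of 1.56 over the 22 arrays, with 1 week after MI minus control at 0.83 in WT spleen and 1.27 in WT bone marrow and 4 weeks minus control at 0.75 in STAT6-KO spleen and 1.22 in STAT6-KO bone marrow. The same differences for Oasl2, with a range of 5.94, were 3.22, 3.90, 4.57 and 4.12. With 1 array a condition, neighbouring values in the order of any of these genes cannot be separated from the spread between pools.

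**Figure D3:**
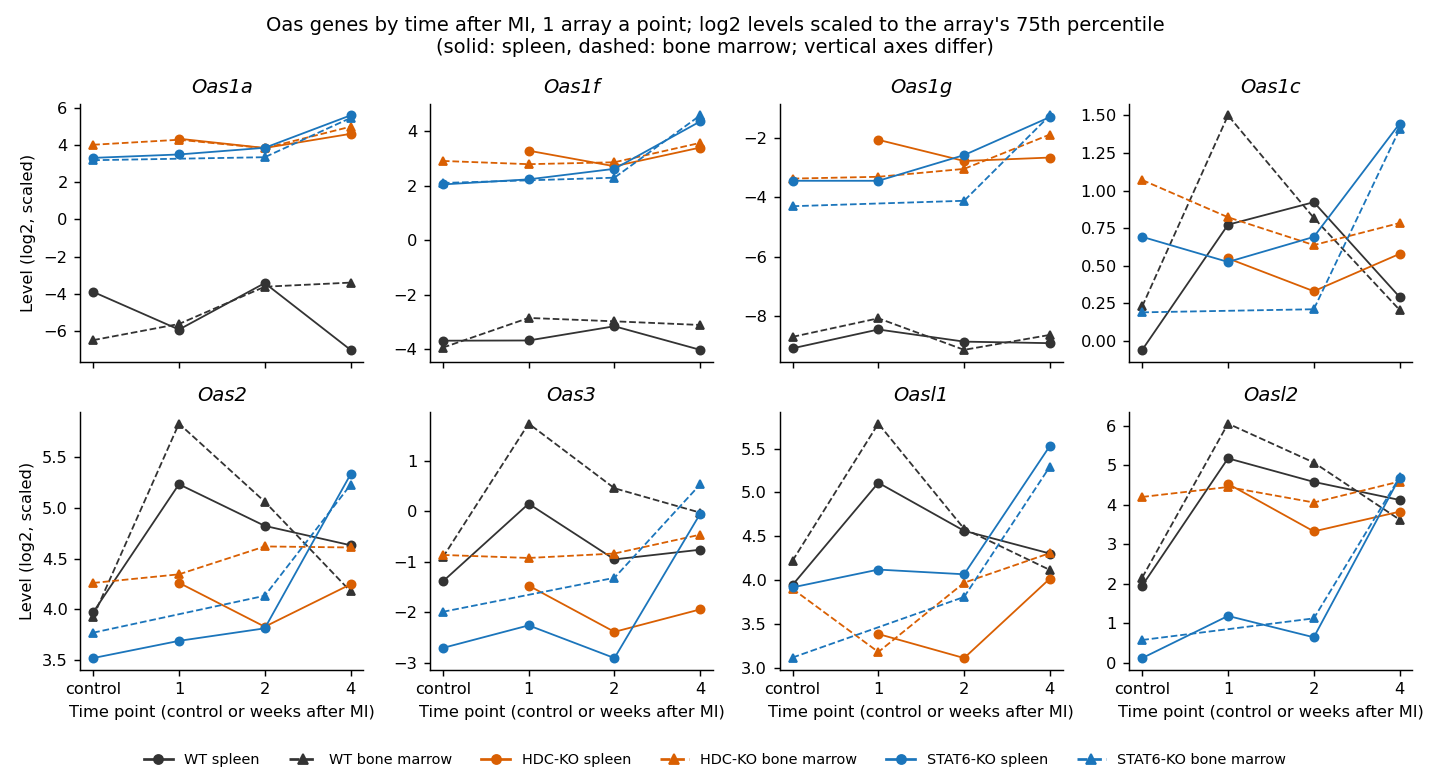
Level (vertical axes, log2 relative to the array's 75th percentile, different in each panel) by time point for 8 Oas genes, 1 array a point, with solid lines for spleen and dashed lines for bone marrow. Oas2, Oas3, Oasl1 and Oasl2 peak at 1 week in WT and at 4 weeks in STAT6-KO, where bone marrow has no 1 week point. Oas1a, Oas1f and Oas1g (probe A_55_P1998979) keep WT and knockouts apart at every time point shown.

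A list of 20 interferon-induced genes outside the family, 17 of which had a probe, gave a level for each array as the median of its gene-centred values. In WT spleen the list was at -0.37, 1.68, 1.06 and 0.58 from the control to 4 weeks, and in WT bone marrow at -0.76, 2.08, 0.95 and -0.26. In STAT6-KO it was at -1.03, -0.39, -0.76 and 1.30 in spleen and at -1.42, -1.22 and 0.93 in bone marrow. HDC-KO stayed between -0.79 and -0.02. None of the 17 list genes had the knockout arrays apart from the WT arrays in either direction. Over all probes this was so for 0.0387% above and 0.0% below, so nothing is read from this count. The spleen and bone marrow arrays of one condition may come from the same mice, which the sources used here do not state.

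The likeness to this list was taken within each tissue as Pearson's r over 11 arrays, after the mean of each genotype in that tissue was taken off both measures. Oas2 had r = 0.97 in spleen and 0.97 in bone marrow, Oasl2 0.97 and 0.97, Oas3 0.92 and 0.97, Oasl1 0.95 and 0.89, and Oas1c 0.90 and 0.95. Spearman's rho for these genes lay between 0.81 and 0.98. Thus 5 of the 10 family probes reached r of at least 0.8 in both tissues, against 0.431% of 33617 probes. As the members were also chosen on this likeness, nothing is read from the share. Just outside that threshold stood Oas1f with 0.76 and 0.84, and just inside it Oasl1. Without the 2 arrays of each tissue farthest from the median of the list, 3 probes reached 0.8 in both tissues. Oas3 was then at 0.76 in spleen, and Oasl1 at 0.67 in bone marrow. Both measures come from the same arrays and share their scaling.

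The genes that separated by genotype were also compared with the list inside each genotype. Over the 7 HDC-KO arrays of both tissues, less the mean of each tissue, Oas1a (A_55_P1998943) had r = 0.94 with the list and Oas1f r = 0.97, and over the 7 STAT6-KO arrays they had 0.98 and 0.98. In WT, where they were dim, r was -0.09 for Oas1a and 0.62 for Oas1f over 8 arrays. The second Oas1a probe, A_55_P1998942, had 0.76 in HDC-KO, 0.97 in STAT6-KO and -0.42 in WT. Oas1g had 0.72 in HDC-KO, 0.94 in STAT6-KO and 0.58 in WT on A_55_P1998979, and 0.55, 0.99 and 0.41 on A_55_P1998977. The values in STAT6-KO were thus 0.94 or higher on all 5 probes of Oas1a, Oas1f and Oas1g, and those in HDC-KO ranged from 0.55 to 0.97. Spearman's rho on these probes was 0.79 to 0.96 in STAT6-KO and 0.32 to 0.96 in HDC-KO. The list stood at 1.30 and 0.93 on the 4 week STAT6-KO arrays and at -0.39 or lower on the other STAT6-KO arrays. The 4 week arrays therefore weigh heavily in the STAT6-KO values. Oas2 had 0.997 in WT, 0.60 in HDC-KO and 0.97 in STAT6-KO, and Oasl2 had 0.97, 0.69 and 0.997. The difference between these correlations was not tested.

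**Figure D4:**
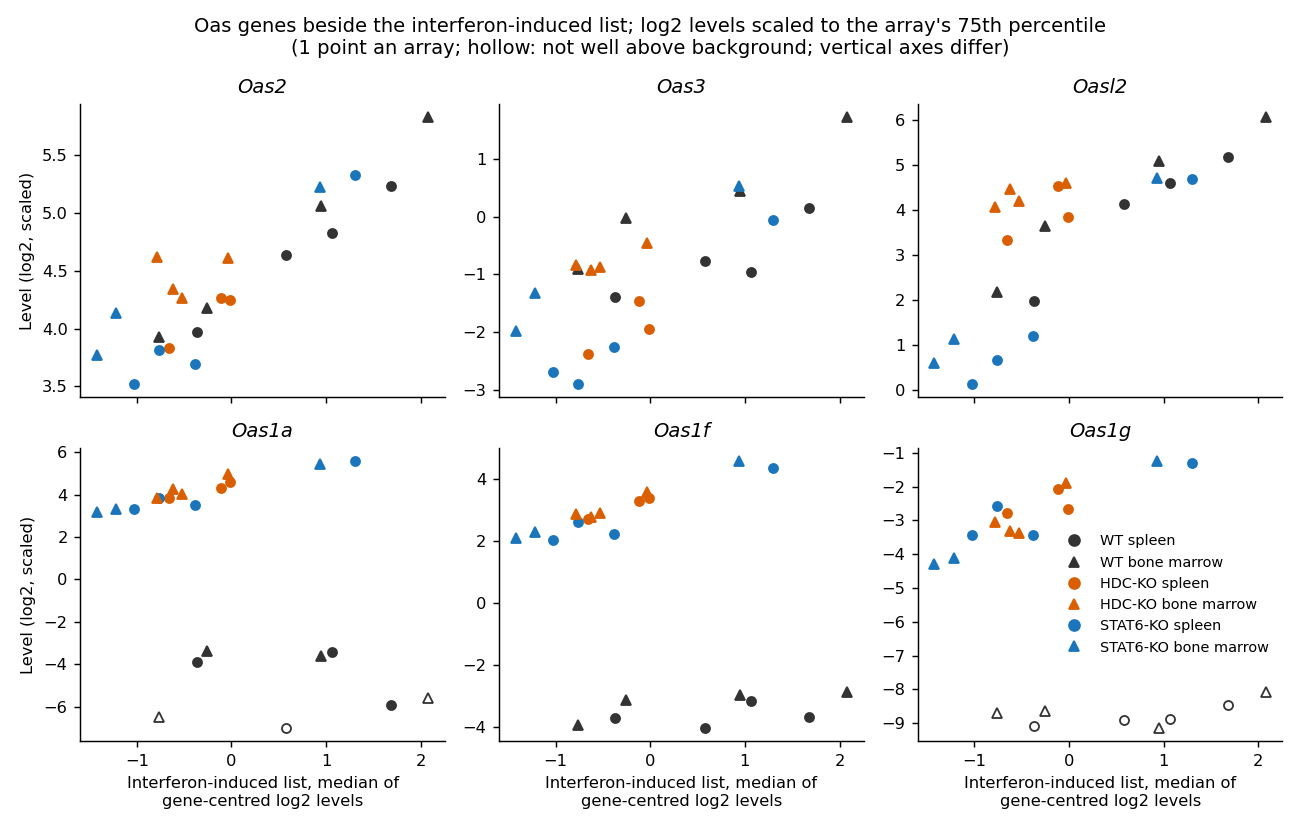
Level of 6 Oas genes (vertical axes, log2 relative to the array's 75th percentile, different in each panel) against the median of the interferon-induced list (horizontal axis, gene-centred log2), 1 point an array, coloured by genotype, with hollow symbols for spots not well above background. The top row (Oas2, Oas3, Oasl2) rises with the list within WT and within STAT6-KO. For Oasl2, HDC-KO bone marrow reads 4.06 to 4.59 with the list between -0.79 and -0.04. The WT controls read 1.96 in spleen and 2.16 in bone marrow with the list at -0.37 and -0.76. The bottom row (Oas1a, Oas1f, and Oas1g on A_55_P1998979) splits into a WT group and a higher knockout group that itself rises with the list.

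Over all 22 arrays, the 3 genes outside the family most like Oas1a, Oas1f and Oas1g were in each case Ctps2, Btbd9 and Glo1, with r between 0.90 and 0.96, values that the step between WT and knockouts sets. Those most like Oas2 were Cmpk2, Ddx58 and Ifit1 (0.93 to 0.95), and those most like Oas3 were Cmpk2, Rnf114 and Ifit1bl1 (0.92 to 0.95). For Oasl1 they were Rsad2, Isg20 and Trim34b (0.88 to 0.91), for Oasl2 Adar, Cmpk2 and Ogfr (0.83 to 0.87), and for Oas1c Ddx58, Csprs and Ifit3b (0.74 to 0.77). Within the family, Oas1a and Oas1f had r = 0.99 and Oas2 and Oas3 had r = 0.89, while Oas1a and Oas3 had r = -0.43 (n = 22 arrays each). With the mean of each genotype in each tissue taken off, these values were 0.73, 0.95 and 0.35, so the sign for Oas1a and Oas3 turned.

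The tissue was not used to choose the members, so spleen was tested against bone marrow over 10 pairs of arrays of the same genotype and time with limma, with the pair as a block and adjustment over 33525 probes. Oas3 was lower in spleen, with a spleen minus bone marrow difference of -1.06 ± 0.15 (log2, SE; limma adjusted p = 0.000104), and lower in 10 of 10 pairs. Without pairs, the 2.09-fold difference passed the methods' own threshold, an unadjusted p and a fold, in their two-sample test, but missed 0.05 after Benjamini-Hochberg adjustment (adjusted p = 0.0681). The 10 pairs came from 3 pairs of slides, and with slide as a random block the adjusted p by limma was 0.000476. The pair values as spleen minus bone marrow were -0.48, -1.58, -1.40 and -0.73 in WT from the control to 4 weeks, -0.55, -1.55 and -1.48 in HDC-KO at 1, 2 and 4 weeks, and -0.71, -1.58 and -0.58 in STAT6-KO control, 2 and 4 weeks. Oas3 was thus higher in bone marrow under every genotype and at every time that had both tissues. It was 1 of 10 family probes called, whereas 54.9% of all probes were called and 32.6% were called as higher in bone marrow. The median difference over all probes was -0.17 and that over the family -0.17. For Oasl2 the difference was -0.34 ± 0.14 with bone marrow higher in 8 of 10 pairs, and did not pass (limma adjusted p = 0.0560). Oas1g on A_55_P1998977, well above background on 10 of 22 arrays, had -0.51 ± 0.24 (limma adjusted p = 0.0932). The remaining 7 probes had differences between -0.26 and 0.23 with limma adjusted p between 0.183 and 0.907. They include Oas1g on A_55_P1998979. Neither Oas1g probe was well above background on any WT array, so their WT pairs compared background signal.

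**Figure D5:**
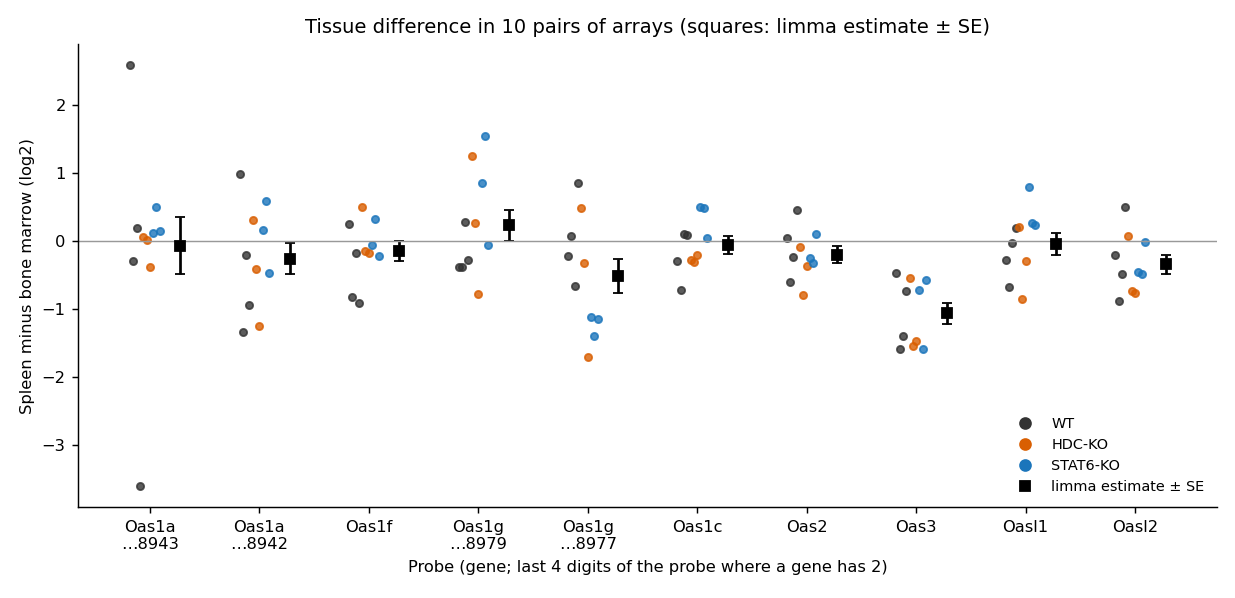
Spleen minus bone marrow (vertical axis, log2) for the 10 Oas probes in 10 pairs of arrays, coloured by genotype, with the limma estimate and its SE as black squares. All 10 pairs lie below 0 for Oas3, from -1.58 to -0.48, and the pairs of the other 9 probes lie on both sides of 0.

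In these bulk samples, fewer cells of a type and less RNA per cell cannot be told apart. Markers of other cells had different ranges in the tissues. The summed level of 4 of 4 B cell markers ran from 4.19 to 6.15 in spleen and from 0.65 to 4.69 in bone marrow, and that of 3 of 3 T cell markers from 1.84 to 3.82 in spleen and from 3.52 to 4.42 in bone marrow, with every one of them well above background on all arrays. The 4 of 4 markers of plasmacytoid dendritic cells, which make much interferon, summed to 4.96 to 6.21 in spleen and 5.17 to 6.29 in bone marrow. The summed levels in spleen and bone marrow were 3.23 to 5.89 and 0.66 to 4.05 for 3 of 3 plasma cell markers, -1.66 to 0.78 and -2.63 to -1.21 for 3 of 3 NK cell markers, and 2.41 to 5.55 and 1.25 to 4.67 for 4 of 4 erythroid markers. The part of these cells in the Oas3 difference was not tested. Between WT and the knockouts the summed levels overlapped for all 7 marker lists, with plasmacytoid dendritic cell markers at 5.54 to 6.28 in WT and 4.96 to 6.29 in the knockouts. These ranges take both tissues together, so they do not show whether the genotypes differed within a tissue.

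Whether the tissue difference itself differed between genotypes was tested with limma on the 10 pair differences. None of the 10 family probes passed by the F test (limma adjusted p between 0.368 and 0.951, 0 of 10 at an unadjusted p under 0.05), against 2.09% of all probes. The STAT6-KO contrast had 1 of 10 at an unadjusted p under 0.05, Oas1g on A_55_P1998977, and the HDC-KO contrast had 0 of 10. Neither Oas1g probe was well above background on any WT array, and both passed the filter only through the knockouts. Their F tests and their contrasts with WT therefore do not rest on measured WT differences (limma adjusted p = 0.330 for A_55_P1998977 in the STAT6-KO contrast). The SE of the STAT6-KO contrast was 0.27 to 1.09 over the 10 probes, so differences of that size could not be detected.

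Genes of the Oas and interferon pathway were described in the same way. None of the 16 had the knockout arrays apart from the WT arrays in either direction. Over all probes this was so for 0.0387% above and 0.0% below, so nothing is read from the count. The 16 include Ifnb1 and Ifna4, which were not well above background on at least 2 arrays. Irf9 and Stat2, 2 of 16, reached r of at least 0.8 with the list in both tissues (Irf9 0.87 and 0.93, Stat2 0.91 and 0.85), against 0.431% of all probes. Of 14 pathway genes tested, 5 were higher in spleen, 3 were higher in bone marrow and 6 did not pass the threshold on limma's adjusted p, so that 57.1% were called against the 54.9% of all probes, with a median difference of 0.06 against -0.17 over all probes. Spleen minus bone marrow was -0.67 for Pde12, which degrades the adenylate chains (limma adjusted p = 0.000528). Ifng, which encodes interferon gamma, was higher in spleen by 3.70 (limma adjusted p = 1.83e-07), and Eif2ak2, another sensor of double-stranded RNA, by 0.45 (limma adjusted p = 0.00393). Of the type I interferon genes, Ifnb1 was well above background on 1 of 22 arrays, Ifna4 on 0 of 22 and Ifna2 on 22 of 22.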

How the data were processed

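CD11b+ cells were measured on 1-colour Agilent 4x44K mouse arrays. The deposited tables hold the scanner output of each array, and per the file headers the intensity used here (the processed signal) is background-subtracted by Feature Extraction. GCRMA is named in the labels with no role and was not applied here. Outlier spots (3055) were left out, and log2 intensity was scaled to the 75th percentile of each array. That percentile was 927.9 to 2461.1, 70.4% to 79.8% of spots were well above background, and the number of arrays limits the precision. Tests used limma 3.58.1 in R 4.3.3, with Benjamini-Hochberg adjustment over probes well above background on at least 2 arrays, and were tested on simulated data. With 1 pool a condition, p-values measure the spread between pairs of arrays. Named genes were the members, an interferon-induced list, a pathway list, neighbours within 500 kb and the 3 genes most like each member, with 1 probe a gene, the highest mean, for lists. A pathway gene is not reported here. Members and lists were chosen with earlier results of these data known. Alternatives covered normalization, background, filters, pairing, slide and left-out pairs. Mean spot signal was not in the tables, so normexp (offset 50) used the median signal.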

Additional observations from a re-analysis of the deposited data

Results flagged for a closer look

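Oas1c (A_55_P1998957) differed in the direction of its tissue difference between the knockouts. Spleen minus bone marrow averaged -0.26 in HDC-KO, with bone marrow higher in 3 of 3 pairs. It averaged 0.34 in STAT6-KO, with spleen higher in 3 of 3 pairs, though by only 0.04 at 4 weeks. The WT pairs lay on both sides of 0, at -0.29, -0.73, 0.10 and 0.09 from the control to 4 weeks. This probe was picked by looking over all 10 family probes for genotypes with opposite directions. The difference between the knockouts was not tested, and the F test over the 3 genotypes gave a limma adjusted p of 0.384.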

How the results depend on the processing

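Oas3 kept its direction under 22 of 22 alternatives and its call under 21, with differences from -1.13 to -0.96. The exception was the methods' two-sample test without pairs, under which 0 of 10 Oas probes passed after Benjamini-Hochberg adjustment (Oas3 adjusted p = 0.0681), while at the threshold of the methods, an unadjusted p and a fold, 1 of 10 passed, Oas3. Under normexp, with the floor on low signals and when a probe had to be well above background everywhere, 2 Oas probes were called, and with 1 pair left out 1 to 3 were called. The additional calls were Oasl2 (adjusted p = 0.0488 under normexp) or Oas1g on A_55_P1998977, and leaving out the WT MI 4w pair gave both. The test between genotypes called no family probe under any alternative run. Only 7 of the 10 were tested when a probe had to be well above background everywhere. The count of probes with every knockout array above every WT array was 4 under every scaling and 3 under normexp, where Oas1g on A_55_P1998979 overlapped by 0.13. Quantile normalization put Oas1f past r of 0.8 in both tissues and made the count 6. Leaving out the 2 arrays of each tissue farthest from the list's median, an alternative chosen after seeing the data, gave 3 in place of 5. Background correction moved the size of the knockout differences. Normexp gave 7.41 for Oas1a (A_55_P1998943) and 1.82 for Oas1g (A_55_P1998979) in HDC-KO bone marrow, against 9.04 and 5.74, and 5.60 against 6.26 for Oas1f, which was well above background on every array.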
